A study of Mus musculus with 22 samples.

Results

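The genes S1pr1, S1pr2, S1pr3, Ccr7, Ccr6, Cxcr4, Cxcr5, Gpr183 and Itgb7 encode receptors that place B lymphocytes in tissues or let them leave. They were chosen by name, with earlier results of these data known, and all 9 were found among the 52636 genes of the count table. Their RNA was measured in 22 libraries of B lymphomas that arose in 15 mice of a mixed 129/C57Bl6 background. Each library was made with a QuantSeq 3′ mRNA-seq reverse kit, which reads the 3′ end of polyadenylated transcripts.

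The MCL-like tumours, named for an immunophenotype resembling mantle cell lymphoma, had the genotype R26-Ccnd2tg/tg;p53fl/fl;Mb1Cretg/+. They comprised 4 primary tumours from 4 mice and 6 transplant libraries that trace to 4 mice. The non-MCL tumours with the same genotype comprised 3 primaries from 3 mice and 2 transplant libraries from 1 mouse. The non-MCL tumours without the Ccnd2 transgene, p53fl/fl;Mb1Cretg/+ and called p53-only here, comprised 7 primary libraries from 6 mice, of which replicates 2 and 5 came from the same mouse. All mice therefore carried floxed p53 alleles and a Cre driven by Mb1 (Cd79a), which is active from early B cell stages. All transplants were spleens of NSG hosts, which lack mature T, B and NK cells but keep myeloid, erythroid and stromal cells. Of the MCL-like primaries, replicate 1 was a mesenteric lymphoma and replicates 2 to 4 were spleens. The Ccnd2 non-MCL primaries were 1 mediastinal lymphoma (replicate 1) and 2 spleens. The p53-only primaries were 3 spleens (replicates 1 to 3), 1 mediastinal lymphoma (replicate 4), 1 thymoma (replicate 6) and 2 lymphomas with no stated site (replicates 5 and 7).

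Naive B cells enter lymph nodes and splenic follicles along chemokine gradients and leave along a gradient of sphingosine-1-phosphate (S1P), which is high in blood and lymph and low in tissue. S1PR1 signals through Gi and drives egress, whereas S1PR2 signals through G12 and G13 and confines germinal centre B cells. CXCR5 responds to CXCL13 and draws B cells into follicles, CCR7 responds to CCL19 and CCL21 and draws cells to the T cell zone, and CXCR4 responds to CXCL12 of bone marrow and germinal centre stroma. CCR6 responds to CCL20 of mucosal epithelium, GPR183 (EBI2) responds to oxysterols and moves activated B cells to the edges of follicles, and the β7 integrin chain pairs with α4 to bind MAdCAM-1 of gut vessels. The transcription factor KLF2 activates S1pr1 in mouse T cells and Itgb7 in mouse B cells.

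Library totals ran from 2693399 to 8146613 counts, so that 1 count was worth between 0.123 and 0.371 CPM (the share of a library's counts, scaled to a fixed total). Levels are given as CPM and were not scaled for transcript length, so they are compared between samples and not between genes. The B cell receptor gene Cd79b had 224 to 1052 CPM in the 14 primary libraries. The pre-B gene Vpreb1 had 0.892, 1.69, 1.90 and 224 CPM in the MCL-like primaries, against 5231, 5691 and 2424 CPM in Ccnd2 non-MCL primaries and 2.02 to 5132 CPM in p53-only primaries. The splenic p53-only primaries were on the low side, at 2.02 to 4.82 CPM, so tumour site and Vpreb1 level are linked among them. The 6 libraries called MCL-like transplants here bear titles that say non-MCL. They were placed by their immunophenotype label, which reads MCL-like. Nothing in the labels says whether libraries of a group were prepared in one run. All libraries are bulk RNA, in which fewer cells of a type and less RNA per cell cannot be told apart.

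S1pr1 and S1pr3, both receptors for S1P, were higher in MCL-like primaries than in every non-MCL primary library. S1pr1, the receptor for egress, had 70.2, 224, 195 and 117 CPM in MCL-like replicates 1 to 4. It had 27.5, 6.89 and 57.2 CPM in the Ccnd2 non-MCL primaries, and 12.1 to 53.5 CPM with a median of 22.6 CPM in the p53-only primaries. The lowest MCL-like tumour, the mesenteric one, was thus above the highest non-MCL tumour, a spleen. The MCL-like group overlapped neither non-MCL group, and the non-MCL groups overlapped each other. By edgeR's quasi-likelihood test over all genes, S1pr1 rose by 2.61 ± 0.43 on the log2 scale against all non-MCL primaries (± SE, adjusted p = 0.0067). Mean levels over mice were 151 ± 70.4 CPM in MCL-like and 27.7 ± 15.7 CPM in non-MCL primaries (SD, n = 4 and 9). Against p53-only primaries alone the log2 fold change was 2.61 ± 0.49 with an adjusted p of 0.0119 by edgeR, and against Ccnd2 non-MCL primaries it was 2.45 ± 0.63 with an adjusted p of 0.0929. These comparisons share the MCL-like mice and are not separate evidence.

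S1pr3, which signals through Gi, Gq and G12 or G13 and is best known from endothelium and marginal zone B cells, showed the larger difference. The MCL-like primaries had 26.8, 29.3, 58.9 and 93.2 CPM. The Ccnd2 non-MCL primaries had 4.83, 6.89 and 5.03 CPM, and the p53-only primaries had 0.254 to 5.45 CPM with a median of 0.991 CPM. The lowest MCL-like library lay well above the highest non-MCL library, and several p53-only libraries held only 1 to 6 counts of the gene. S1pr3 rose by 4.24 ± 0.65 on the log2 scale against all non-MCL primaries (± SE, edgeR adjusted p = 0.0052) and against p53-only primaries by 4.99 ± 0.66 (edgeR adjusted p = 0.0030). Against Ccnd2 non-MCL primaries the log2 fold change was 3.28 ± 0.80 with an edgeR adjusted p of 0.0838. Between Ccnd2 non-MCL and p53-only primaries, S1pr3 averaged 5.58 ± 1.14 and 1.65 ± 1.96 CPM (SD, n = 3 and 6), with a log2 difference of 1.71 and an edgeR adjusted p of 0.423.

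S1pr3 lies on chromosome 13 (GRCm38 positions 51408639 to 51422797, plus strand). Its window from 250 bases before to 50 bases after the transcript start is shown because S1pr3 had the lowest adjusted p of the members in each of the 3 comparisons of MCL-like primaries. Capitals mark matches to the letters CACCC or their reverse complement GGGTG, the core bound by KLF factors (chr13:51408368-51408667, plus strand, RefSeq, GRCm38.p6).
S1pr3: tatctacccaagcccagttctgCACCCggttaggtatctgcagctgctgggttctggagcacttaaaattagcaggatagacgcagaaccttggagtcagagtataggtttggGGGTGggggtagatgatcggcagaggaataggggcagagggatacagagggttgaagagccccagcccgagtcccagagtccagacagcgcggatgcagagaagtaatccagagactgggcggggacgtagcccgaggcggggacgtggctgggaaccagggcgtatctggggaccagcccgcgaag
The window holds 2 such boxes, at 228 and 137 bases before the start. Of 32851 promoter windows of this length in the RefSeq table, 57.5% hold at least 1 box on either strand, so a match is common. None of the members' windows holds GTAAACA, a core bound by FOXO factors, which 3.65% of all windows hold. Windows were found for 6 of the 9 members (S1pr2, S1pr3, Ccr6, Cxcr4, Gpr183 and Itgb7), and S1pr1, Ccr7 and Cxcr5 had none.

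The S1pr1 and S1pr3 levels stood beside differences in other cell types and in pro-B and pre-B genes. T cells also express S1pr1, and Cd3e had 2.38, 26.0, 34.8 and 17.5 CPM in the MCL-like primaries, against 0.371 to 2.95 CPM in Ccnd2 non-MCL and 0.275 to 32.2 CPM in p53-only primaries. The summed level of 12 T cell genes was 99.0 to 592.5 CPM in MCL-like, 70.2 to 238.6 CPM in Ccnd2 non-MCL and 70.8 to 652.2 CPM in p53-only primaries, and 0 of the 12 were called by edgeR in any comparison of MCL-like primaries. Of the 12, 11 had positive log2 fold changes in each, with medians of 2.89 against Ccnd2 non-MCL, 0.77 against p53-only and 1.28 against all non-MCL primaries. The mesenteric MCL-like tumour had 99.0 CPM of the T cell sum and 70.2 CPM of S1pr1, and the p53-only spleen with the highest T cell sum had 34.0 CPM of S1pr1. The summed level of 12 endothelial and stromal genes was 133 to 306 CPM in MCL-like, 238 to 407 CPM in Ccnd2 non-MCL and 122 to 512 CPM in p53-only primaries, with 0 genes called. The sum of 8 erythroid genes was 23394 to 111149.9 CPM in MCL-like primaries, against 3139.5 to 32402 CPM in Ccnd2 non-MCL tumours and 89.0 to 38637 CPM in p53-only tumours. All 8 were positive in each comparison of MCL-like primaries, with medians of 1.66 to 2.58, and 0 were called. The sum of 10 pro-B and pre-B genes was 61.8 to 391 CPM in MCL-like primaries. It was 4545 to 9799 CPM in Ccnd2 non-MCL and 269 to 9407 CPM in p53-only primaries. Of the 10, 0 were positive in any comparison of MCL-like primaries, with medians of −5.91 to −4.35. Called lower were 1 against Ccnd2 non-MCL, 4 against p53-only and 5 against all non-MCL primaries, where 0.247%, 2.86% and 2.4% of genes were. The part of these cell types and of B cell stage in the S1pr1 and S1pr3 levels was not tested. An opposite-strand gene that overlaps S1pr3, Gm32834, had 67 counts over all libraries, beside 1832 for S1pr3.

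S1pr2, the confining receptor, did not follow the other S1P receptors. MCL-like primaries had 7.73, 5.27, 1.27 and 5.10 CPM, against 8.17, 6.29 and 5.28 CPM in Ccnd2 non-MCL and 2.79 to 69.0 CPM (median 7.86) in p53-only primaries. The groups overlapped, and the high end came from p53-only replicates 2 and 5, which at 69.0 and 41.2 CPM are a spleen and an unstated site of 1 mouse. The log2 fold change against all non-MCL primaries was −1.37 ± 0.88 with an edgeR adjusted p of 0.347.

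**Figure D1:**
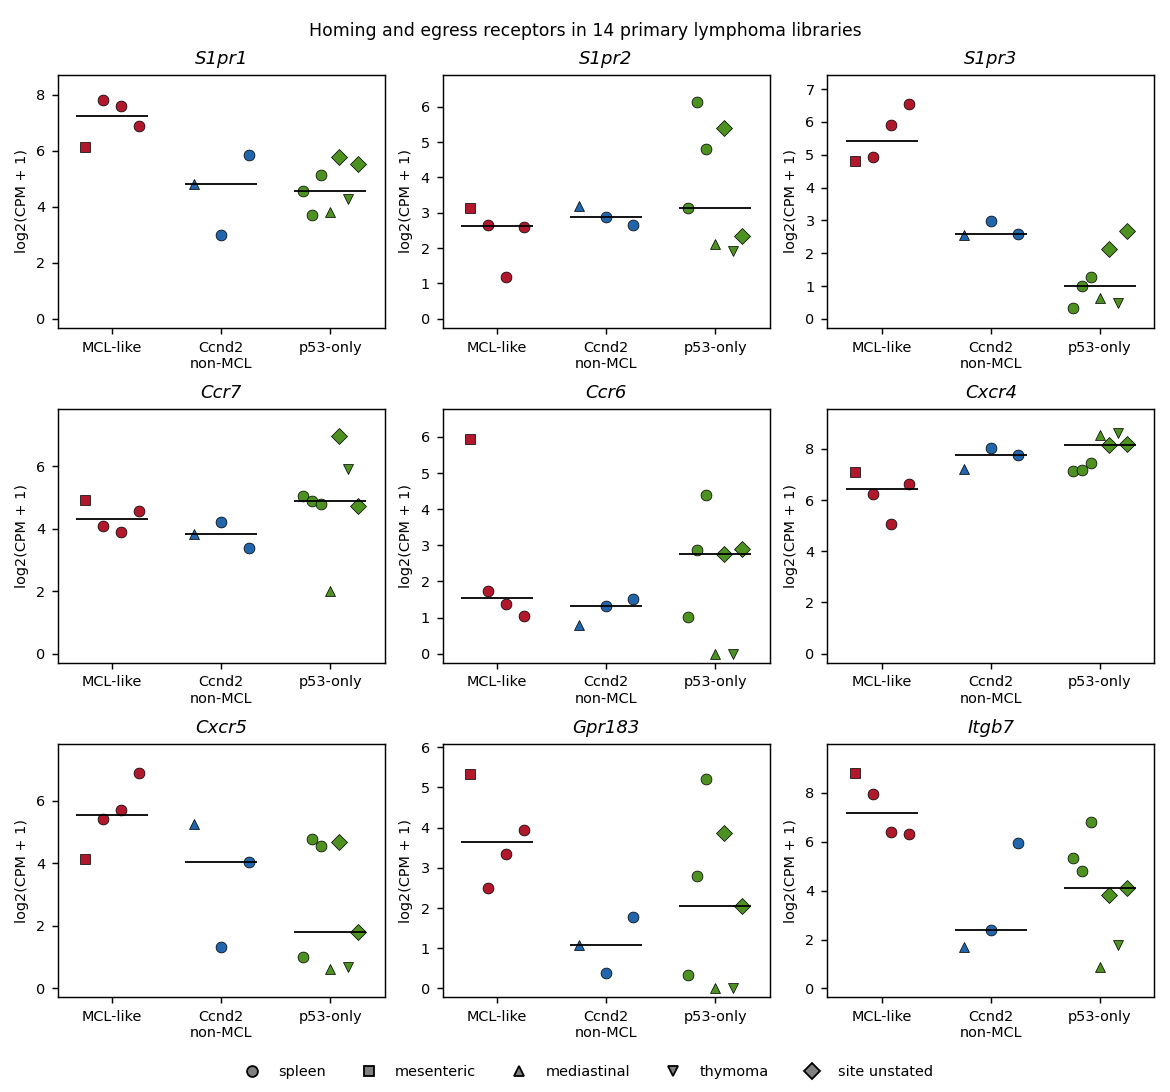
Levels of the 9 receptor genes in the 14 primary libraries, as log2(CPM + 1) on the vertical axis, with 1 point per library, symbols for tumour site and a line at the median of libraries. MCL-like libraries lie above all others for S1pr1 and S1pr3 and below all others for Cxcr4, and the mesenteric MCL-like tumour stands apart for Ccr6.

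Cxcr4, the receptor for CXCL12, was lower in MCL-like primaries than in every non-MCL primary library. It had 135, 74.7, 32.3 and 97.0 CPM in MCL-like primaries. It had 148, 259 and 218 CPM in Ccnd2 non-MCL and 140 to 395 CPM (median 281) in p53-only primaries. The MCL-like group overlapped neither non-MCL group, but the mesenteric tumour missed the lowest p53-only spleen by a narrow margin, 135 against 140 CPM. Against p53-only primaries Cxcr4 fell by 1.49 on the log2 scale (SE 0.42; edgeR adjusted p = 0.0491). Against all non-MCL primaries the log2 fold change was −1.32 ± 0.38 with an edgeR adjusted p of 0.0564, and against Ccnd2 non-MCL primaries it was −1.15 ± 0.46 with 0.223. The call against p53-only primaries sits at the threshold and was lost in 14 of 20 alternative fits, among them spleen tumours only (−1.24, edgeR adjusted p = 0.182).

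Cxcr4 lies on chromosome 1 (GRCm38 positions 128588199 to 128592293, minus strand). Its promoter window is shown beside that of S1pr3 because the gene moved the other way (chr1:128592250-128592549, minus strand, RefSeq, GRCm38.p6).
Cxcr4: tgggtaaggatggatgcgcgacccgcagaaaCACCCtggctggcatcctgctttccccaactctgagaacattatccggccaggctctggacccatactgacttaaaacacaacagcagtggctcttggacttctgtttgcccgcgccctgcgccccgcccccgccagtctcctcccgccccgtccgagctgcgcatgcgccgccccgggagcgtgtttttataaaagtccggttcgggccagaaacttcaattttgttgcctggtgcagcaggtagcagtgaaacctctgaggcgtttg
It holds 1 CACCC box, at 219 bases before the start.

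Cxcr5, the follicular homing receptor, had 16.7, 41.6, 51.3 and 119 CPM in MCL-like primaries. It had 37.1, 1.50 and 15.5 CPM in Ccnd2 non-MCL and 0.549 to 26.3 CPM (median 2.53) in p53-only primaries. The MCL-like group overlapped both other groups, since the mesenteric tumour lay within their ranges. All 3 MCL-like spleens were above every non-MCL library, but the share of all genes that separate in this way was not counted. The log2 fold change was 1.70 ± 1.31 against Ccnd2 non-MCL, 2.65 ± 1.06 against p53-only and 2.30 ± 0.92 against all non-MCL primaries. The edgeR adjusted p were 0.551, 0.131 and 0.140. Of the p53-only libraries, 3 had 22.5 to 26.3 CPM (replicates 2, 3 and 5) and 4 had 0.549 to 2.53 CPM. Bcl9l overlaps Cxcr5 on the opposite strand with 4867 counts, beside 2390 for Cxcr5, and the labels do not say if the counting used strand.

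Ccr7, the receptor for the T cell zone, was called in none of the comparisons. MCL-like primaries had 29.1, 15.8, 13.9 and 22.6 CPM, against 13.4, 17.7 and 9.45 CPM in Ccnd2 non-MCL and 3.02 to 124 CPM (median 28.7) in p53-only primaries. The p53-only range enclosed both other groups. The log2 fold change was 0.73 ± 0.69 against Ccnd2 non-MCL, −0.67 ± 0.58 against p53-only and −0.28 ± 0.60 against all non-MCL primaries, with edgeR adjusted p of 0.637, 0.473 and 0.804. Ccr7 averaged 13.5 ± 4.12 CPM in the 3 Ccnd2 non-MCL mice, against 34.3 ± 21.9 CPM in the 6 p53-only mice (SD), with a log2 fold change of −1.40 ± 0.67 and an edgeR adjusted p of 0.495.

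Ccr6, the receptor for mucosal CCL20, was high in 1 MCL-like tumour. The MCL-like primaries had 60.7, 2.32, 1.58 and 1.07 CPM, against 0.743, 1.50 and 1.84 CPM in Ccnd2 non-MCL and 0 to 20.2 CPM (median 5.79) in p53-only primaries. The 60.7 CPM belong to the mesenteric tumour, and the MCL-like spleens, at 1.07 to 2.32 CPM, overlapped the Ccnd2 non-MCL tumours. Against all non-MCL primaries Ccr6 had a log2 fold change of 2.24 ± 1.22 with the mesenteric tumour and −1.27 without it, with edgeR adjusted p of 0.272 and 0.605. A count of 0 in p53-only replicates 4 and 6 allows up to 3 counts, which is 0.368 to 1.11 CPM over all libraries.

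Gpr183, the oxysterol receptor, had 39.5, 4.64, 9.18 and 14.2 CPM in MCL-like primaries. It had 1.11, 0.300 and 2.46 CPM in Ccnd2 non-MCL and 0 to 35.7 CPM (median 3.12) in p53-only primaries. MCL-like and Ccnd2 non-MCL primaries did not overlap, while the p53-only range covered nearly all the rest. The log2 fold change was 3.81 ± 1.82 against Ccnd2 non-MCL and 1.21 ± 1.27 against p53-only primaries, with edgeR adjusted p of 0.308 and 0.558. Ubac2 overlaps Gpr183 on the opposite strand with 5799 counts, beside 770 for Gpr183. The highest p53-only library for Gpr183, Ccr6 and Itgb7 was the same spleen (replicate 3), which also had the highest T cell sum (652.2 CPM) and the highest dendritic cell sum (86.4 CPM) of the p53-only mice. The part of these cells in the 3 receptor levels was not tested.

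Itgb7, the gut homing integrin chain, had 451, 248, 82.3 and 79.0 CPM in MCL-like primaries. It had 2.23, 4.20 and 61.3 CPM in Ccnd2 non-MCL and 0.824 to 111 CPM (median 16.4) in p53-only primaries. Every MCL-like library exceeded every Ccnd2 non-MCL library, and 1 p53-only spleen at 111 CPM overlapped the lower MCL-like spleens. The log2 fold change was 3.49 ± 1.49 against Ccnd2 non-MCL, 2.88 ± 1.11 against p53-only and 3.10 ± 0.96 against all non-MCL primaries, with edgeR adjusted p of 0.253, 0.122 and 0.0699. The mean of the partner chain Itga4 was 194 CPM in MCL-like primaries, against 121 CPM in non-MCL primaries, with a log2 fold change of 0.84 and an edgeR adjusted p of 0.192.

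Itgb7 lies on chromosome 15 (GRCm38 positions 102215995 to 102231944, minus strand). Its promoter window is shown because KLF2 is known to act on the gene and because it holds the most CACCC boxes of the members' 7 windows, 4 (chr15:102231886-102232185, minus strand, RefSeq, GRCm38.p6). Of all windows, 3.10% hold 4 or more, but this window was picked for its number, so the share is no test.
Itgb7: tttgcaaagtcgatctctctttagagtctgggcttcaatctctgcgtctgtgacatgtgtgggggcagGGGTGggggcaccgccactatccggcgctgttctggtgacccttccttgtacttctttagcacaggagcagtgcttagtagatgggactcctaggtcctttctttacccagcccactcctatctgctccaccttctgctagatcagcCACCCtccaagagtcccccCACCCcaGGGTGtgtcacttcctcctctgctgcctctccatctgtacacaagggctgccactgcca
The boxes lie 182, 35, 16 and 9 bases before the start. The mean of Klf2 itself was 421 CPM in MCL-like primaries, against 174 CPM in non-MCL primaries, with a log2 fold change of 1.46 ± 0.61 and an edgeR adjusted p of 0.151. Any part of KLF2 in the Itgb7 levels was not tested.

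Against Ccnd2 non-MCL primaries, which differ from MCL-like tumours in immunophenotype and not in genotype, 0 of 9 members passed an adjusted p of 0.05 by edgeR. Of 12967 genes, 0.308% passed, 0.0617% as higher and 0.247% as lower. That is 8 higher and 32 lower genes with TMM scaling, and 2 higher and 31 lower with library totals. At an unadjusted p under 0.05, 4 members and 2175 of the 12967 genes passed. DESeq2 called 847 genes, among them 2 members, S1pr1 and S1pr3. S1pr1, S1pr3, Gpr183 and Itgb7 were higher without overlap, as 5.66% of all genes were, and Cxcr4 was lower without overlap, as 10.5% were. The median log2 fold change of the 9 members was 2.45, beside −0.04 over all genes tested. S1pr3 passed when spleen tumours alone were compared (3.36, edgeR adjusted p = 0.0484), as did 116 of 12989 genes. S1pr1, S1pr3 and Itgb7 passed when tumours with a name in oTP were left out, as did 552 of 13013 genes. These tumours are Ccnd2 non-MCL replicate 3 and p53-only replicates 4 to 7, and no MCL-like tumour, so the name goes with group. Ccnd2 non-MCL replicate 3 had the highest S1pr1 and Itgb7 of its group, 57.2 and 61.3 CPM. Leaving it out kept only replicates 1 and 2 of that group.

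Against p53-only primaries, which differ in immunophenotype and in the Ccnd2 transgene together, 2 of 9 members rose (S1pr1 and S1pr3), where 2.95% of 12967 genes did. Of the members, 1 fell (Cxcr4), where 2.86% of genes did, and 5.81% of genes passed in either direction. That is 382 higher and 371 lower genes with TMM scaling, and 404 higher and 259 lower with DESeq2 size factors, with which Cxcr4 lost its call (−1.40, edgeR adjusted p = 0.0592). S1pr1 and S1pr3 were higher without overlap, as 3.83% of genes were, and Cxcr4 was lower, as 7.12% were. The members' median log2 fold change was 1.77, beside −0.11 over all genes. With spleen tumours only, S1pr3 kept its call (5.94, edgeR adjusted p = 0.0142) and S1pr1 did not (2.96, edgeR adjusted p = 0.108). Without those oTP tumours, S1pr1 had an edgeR adjusted p of 0.0559.

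Against all non-MCL primaries, 2 of 9 members rose, where 3.11% of 12434 genes did, and 0 fell, where 2.4% did (5.51% in either direction). That is 387 higher and 298 lower genes with TMM scaling, and 298 higher and 447 lower with library totals, with which Cxcr4 also fell (−1.52, edgeR adjusted p = 0.0372). S1pr1 and S1pr3 were higher without overlap, as 1.85% of genes were, and Cxcr4 was lower, as 2.88% were. The members' median log2 fold change was 2.24, beside −0.07 over all genes. With spleen tumours only, S1pr1 lost its call (2.80, edgeR adjusted p = 0.0905) and S1pr3 kept it (4.33, edgeR adjusted p = 0.0424). With genotype as a covariate the log2 fold changes were 2.48 for S1pr1 and 3.31 for S1pr3, and edgeR adjusted p rose to 0.0927 and 0.0826.

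Between Ccnd2 non-MCL and p53-only primaries, 0 of 9 members and 0% of 12967 genes passed by edgeR. The labels of these groups differ in the transgene, but their mix of tumour sites differs too. The pro-B and pre-B sum was 4545 to 9799 CPM in the former and 269 to 9407 CPM in the latter. Transgene, site and B cell stage cannot be told apart here. At an unadjusted p under 0.05, 1330 genes passed, among them 1 member (S1pr3), and DESeq2 called 119 genes and no member. No member had groups without overlap, where 1.72% of genes were higher and 1.58% lower in this way.

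**Figure D2:**
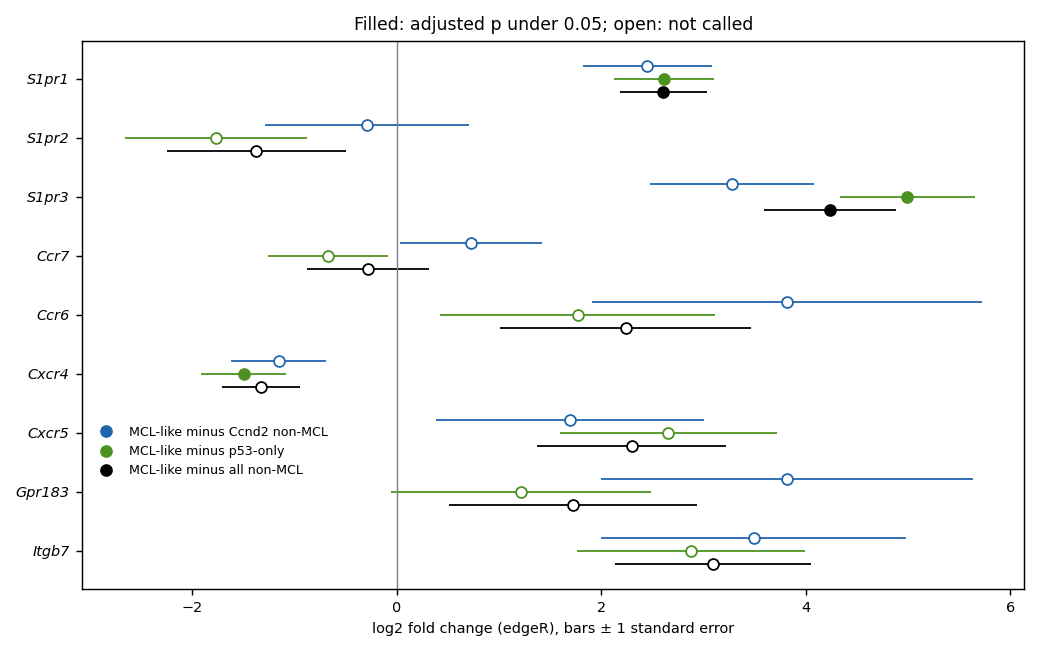
Log2 fold changes of the 9 receptor genes in MCL-like primaries against 3 sets of non-MCL primaries (horizontal axis, edgeR), with bars of 1 standard error and filled points where the adjusted p is under 0.05. S1pr1 and S1pr3 are filled in 2 comparisons, Cxcr4 in 1, and all 9 genes are open against Ccnd2 non-MCL primaries.

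Among the non-MCL primaries, Itgb7 was lower in tumours of the mediastinum or thymus than in spleens. The mediastinal and thymic tumours had 2.23, 0.824 and 2.39 CPM, against 4.20, 61.3, 39.8, 26.6 and 111 CPM in the spleens. All thoracic tumours were below all spleens, and Itgb7 was lower without overlap as 4.09% of 12086 genes were. No member was higher without overlap, as 5.19% of genes were. With genotype as a covariate the log2 fold change was −4.72 ± 1.03 with an edgeR adjusted p of 0.122, so Itgb7 was not called. By edgeR 0 of 7 members tested and 0% of genes passed, with 1785 genes and 1 member at an unadjusted p under 0.05, whereas DESeq2 called 768 genes and 1 member, Itgb7 (−4.79, DESeq2 adjusted p = 3.9e-06).

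Ccr6 and Gpr183 did not pass the filter on low counts in this comparison. The thoracic tumours had 0 to 0.743 CPM of Ccr6 and 0 to 1.11 CPM of Gpr183, against 1.01 to 20.2 CPM and 0.254 to 35.7 CPM in spleens. These thoracic values rest on at most 3 counts a library. Cxcr4 ran the other way, at 148, 376 and 395 CPM in thoracic tumours against 140 to 259 CPM in spleens, with a log2 fold change of 0.66 ± 0.41 and an edgeR adjusted p of 0.476. Cd3e moved with site, at 0.275 to 0.399 CPM in thoracic tumours against 1.50 to 32.2 CPM in spleens. Other lists moved too, with 0 genes called. Median log2 fold changes were 2.82 over 10 pro-B and pre-B genes and 2.36 over 9 endothelial and stromal genes. They were −4.32 over 8 erythroid and −4.68 over 7 neutrophil genes, but −0.05 over 9 B lineage genes. Site, B cell stage and content of other cells therefore cannot be told apart with these 8 mice. Vpreb1 ranges overlapped, at 458 to 5231 CPM in thoracic tumours against 2.02 to 5691 CPM in spleens, although the p53-only spleens were all low.

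**Figure D3:**
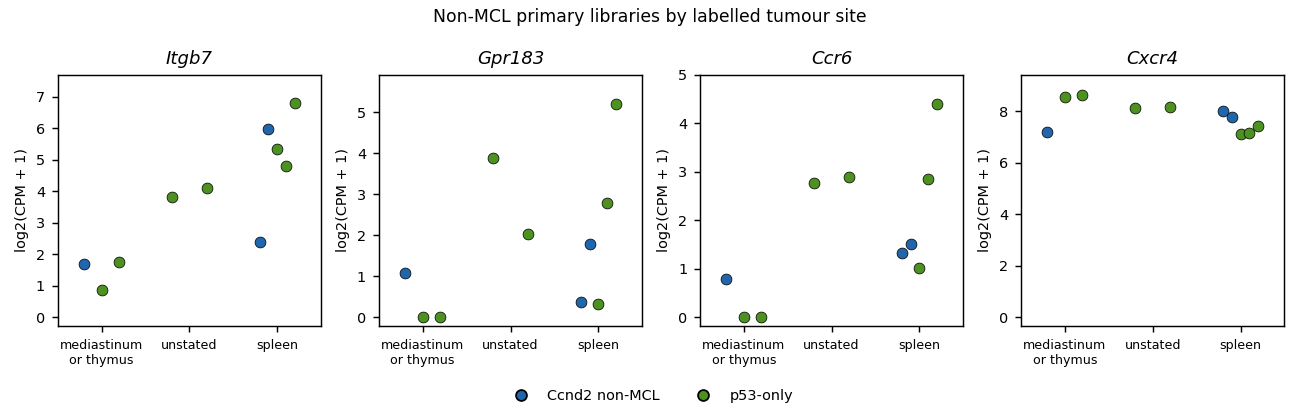
Itgb7, Gpr183, Ccr6 and Cxcr4 in the 10 non-MCL primary libraries by labelled tumour site, as log2(CPM + 1) on the vertical axis with 1 point per library. The mediastinal and thymic tumours are at 0.824 to 2.39 CPM of Itgb7, below the spleens at 4.20 to 111 CPM.

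The mesenteric MCL-like tumour was at an end of its group for every receptor. It was the highest of 4 for S1pr2, Ccr7, Ccr6, Cxcr4, Gpr183 and Itgb7 and the lowest for S1pr1, S1pr3 and Cxcr5. Of all 12967 genes tested, 57.3% had this tumour at an end of the group. Its NSG spleen transplants kept the position for 6 of 9 members. Of the 7425 genes with the primary at an end, 3733 kept the position. Highest in both were Ccr6, Gpr183 and Itgb7, and lowest in both were S1pr1, S1pr3 and Cxcr5. This count was made after the values were seen. The erythroid sum was 71638 CPM in the transplants of this mouse, against 276 to 1279 CPM in the other MCL-like transplant mice, and its part in these positions was not tested.

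Ccr6 had 65.7 and 71.2 CPM in the transplants of the mesenteric tumour, against 60.7 CPM in the primary itself. The other MCL-like transplants had 0.328, 0, 0.172 and 1.80 CPM. The level was therefore high in the NSG spleen as well as at the mesenteric site, and low in transplants of spleen tumours. Itgb7 had 230 and 340 CPM in the transplants of the mesenteric tumour, against 451 CPM in the primary. It had 149 CPM in the transplant against 248 CPM in the primary of replicate 2, and 19.0 and 18.0 CPM against 79.0 CPM for replicate 4. The transplant of a mouse with no primary library had 19.6 CPM. The order of the mice was the same before and after transplantation, and every transplant was lower than its primary.

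For the 3 mice with both stages, transplants against primaries gave 0 of 9 members and 0% of 12020 genes by edgeR with mouse as a block. At an unadjusted p under 0.05, 656 genes and 1 member (Itgb7) passed, and DESeq2 called 31 genes and no member. Itgb7 (log2 fold change −1.06 ± 0.33, edgeR adjusted p = 0.820) and S1pr3 (−0.50 ± 0.32, edgeR adjusted p = 0.820) were lower in all 3 mice, as 16.5% of genes were. None was higher in all 3, as 12.4% of genes were. The members' median was −0.37, beside 0.01 over all genes. Median log2 fold changes were −1.93 over 12 T cell genes and −3.62 over 8 erythroid genes, with 0 called in either list. The erythroid sum fell from 111149.9 to 276 CPM for primary replicate 2 and from 23394 to 1279 CPM for replicate 4. For the mesenteric replicate 1 it rose from 50388 to 71638 CPM. The part of other cells in the receptor levels was not tested.

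S1pr1 had 32.7, 44.6, 134, 147, 136 and 62.7 CPM in the MCL-like transplants, against 21.7 and 20.3 CPM in the Ccnd2 non-MCL transplants. S1pr3 had 9.23, 16.9, 54.1, 63.3, 55.3 and 27.7 CPM in the MCL-like transplants, against 0 and 0.762 CPM in the Ccnd2 non-MCL transplants. Both genes were above the non-MCL transplants in every MCL-like transplant. The S1pr3 count of 0 allows up to 0.794 CPM. The T cell sum was 45.9 to 100.5 CPM per MCL-like mouse and 102.0 CPM for the non-MCL mouse. The endothelial and stromal sum was 69.7 to 209 CPM against 137 CPM. The pro-B and pre-B sum was 55.7 to 211 CPM against 689 CPM. The part of other cells and of B cell stage in the transplant levels was not tested. Cxcr4 had 72.8 to 144 CPM in MCL-like and 197 and 349 CPM in Ccnd2 non-MCL transplants. The non-MCL transplants came from 1 mouse, so these differences have no replicate check and were not tested. The share of all genes that separate the transplant groups in this way was not counted.

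**Figure D4:**
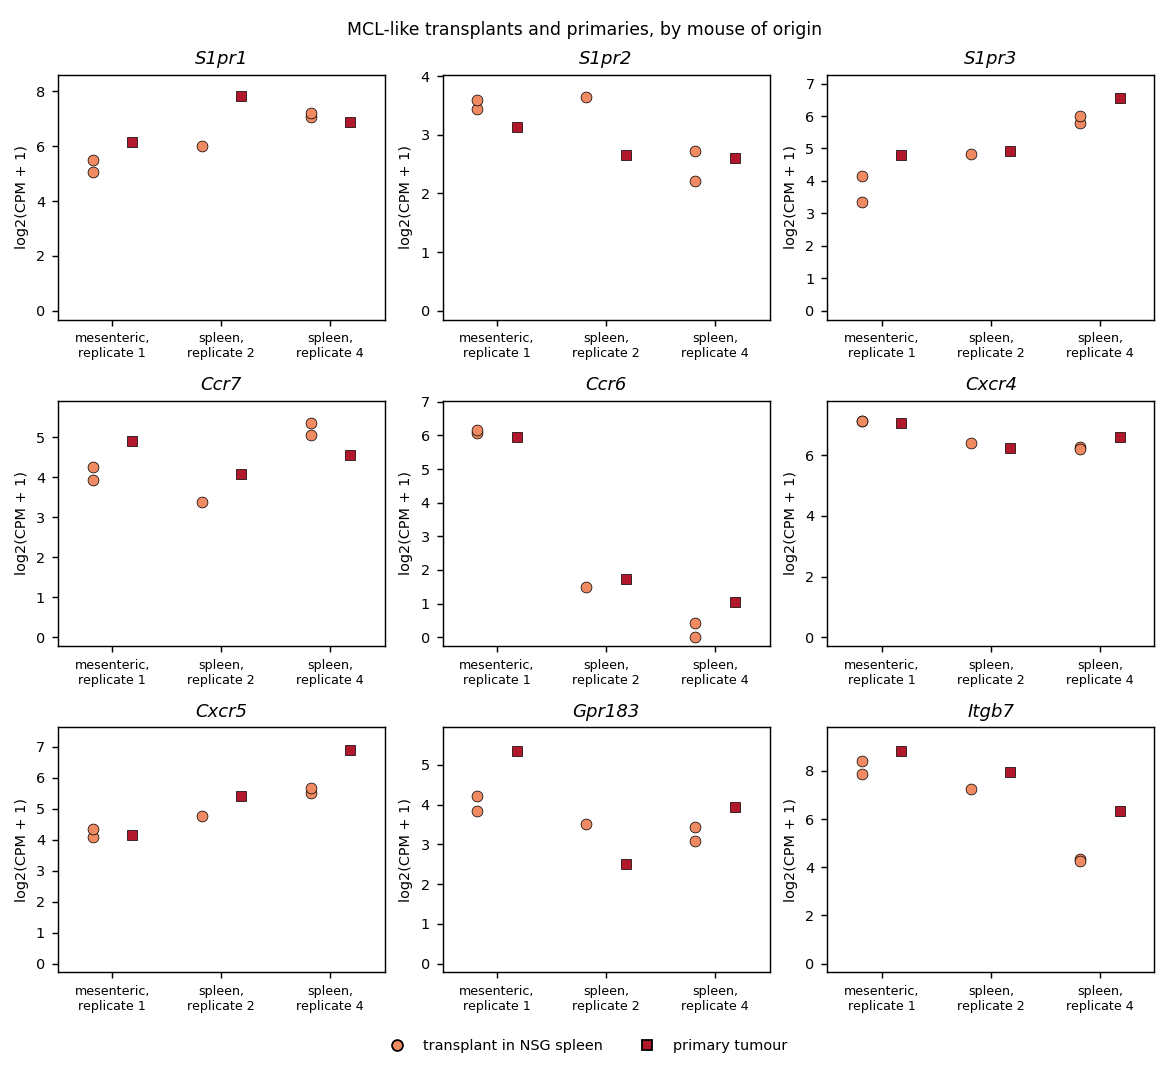
The 9 receptor genes in MCL-like transplants (circles) and primaries (squares) of the 3 mice that have both, as log2(CPM + 1) on the vertical axis with 1 point per library. Ccr6 is high only in the mesenteric primary and its transplants among these mice, and Itgb7 is lower in transplants than in the primary of each mouse.

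Other genes of the same pathways were counted from lists made with the receptors. Of 24 genes for S1P enzymes, transporters and partners, 22 were tested against p53-only primaries. Of these, 2 rose and 2 fell, where 2.95% and 2.86% of all genes did. Sgpl1, the lyase that degrades S1P, rose (2.07 ± 0.41, edgeR adjusted p = 0.0136), as did Plpp3, a phosphatase that acts on S1P (3.83 ± 0.69, edgeR adjusted p = 0.0103). Rgs2, which shortens G protein signals, fell by 2.32 on the log2 scale (edgeR adjusted p = 0.0099), and 1 more gene of the list, Gna12, fell by 2.59 (edgeR adjusted p = 0.0347). Gna12 encodes a G protein that couples to S1PR2, and S1PR3 signals through G12 or G13 as well. Against Ccnd2 non-MCL primaries 1 of the 22 was called, as lower, where 0.247% of all genes were. It was Rgs2 at 55.6 against 323 CPM (−2.43 ± 0.45, edgeR adjusted p = 0.0484). Against all non-MCL primaries 21 were tested, and 1 rose and 2 fell, where 3.11% and 2.4% of genes did. The list's median log2 fold change was 0.27 against p53-only, 0.37 against Ccnd2 non-MCL and 0.38 against all non-MCL primaries.

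S1pr4, Klf2, Foxo1, Cd69, Gna13 and Itga4 were called in none of the 6 comparisons by edgeR. CD69 pulls S1PR1 from the cell surface, and FOXO1 activates Klf2. Mean Cd69 was 13.6 CPM in MCL-like primaries, against 13.2 CPM in non-MCL primaries. Mean Foxo1 was 166 CPM in MCL-like primaries, against 194 CPM in non-MCL primaries.

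Of 26 other chemoattractant receptors, 20 were tested against all non-MCL primaries and 5 rose, where 3.11% of all genes did, with a list median of 2.02 beside −0.07 over all genes. Of 21 tested in each, 0 were called against Ccnd2 non-MCL and 2 rose against p53-only primaries, where 0.0617% and 2.95% of genes rose. Against all non-MCL primaries the lowest adjusted p belonged to Ackr2, a scavenger of inflammatory chemokines, at 30.0 CPM in MCL-like against 0.716 CPM in non-MCL primaries (5.29 ± 1.06, edgeR adjusted p = 0.0142). Next were Cxcr3 (4.47 ± 1.10, edgeR adjusted p = 0.0334) and Ccr2 (2.77 ± 0.69, edgeR adjusted p = 0.0349), which T cells and monocytes also express. The macrophage and monocyte sum was 610.5 to 1298 CPM in MCL-like and 275 to 1734 CPM in non-MCL primaries. Of 24 integrin and adhesion genes, 22 were tested. Of these, 0 were called against Ccnd2 non-MCL, 2 rose against p53-only and 4 rose against all non-MCL primaries, where 3.11% of all genes rose. The 4 were led by Itgb1, the chain that pairs with α4 to bind VCAM-1 (543 against 132 CPM; 2.18 ± 0.39, edgeR adjusted p = 0.0102), Icam1 (1.49 ± 0.36, edgeR adjusted p = 0.0293) and Rac2 (1.41 ± 0.35, edgeR adjusted p = 0.0340). Of 9 ligands and oxysterol enzymes, 3 passed the filter and 0 were called.

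Genes whose levels ran most like a member's over the 13 primary mice were ranked by Pearson's r of log2 CPM among 12966 genes. The closest were Snap23 for S1pr1 (r = 0.977), P4hb for Cxcr4 (0.968), Gm42515 for S1pr3 (0.960) and Rarg for Itgb7 (0.952). They were followed by 5330426L24Rik for Cxcr5 (0.948), Lsr for Ccr6 (0.924), Eif4ebp1 for S1pr2 (0.890) and Pex26 for Ccr7 (0.854). Rarg lies 2994 bases upstream of Itgb7 on the same strand, and the second gene for Itgb7 was Klf2 (0.951). These values rank genes over mice of 3 groups that differ broadly, and have no test.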

How the data were processed

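The 22 libraries were made from lymphoma cells with a QuantSeq 3′ mRNA-seq reverse kit, per the labels' protocols. The submitters' processing notes name FastQC, STAR and GRCm38. No label or header names the counting program or its strand setting. The authors deposited raw counts for 52636 Ensembl genes, of which 52403 were matched to symbols. From these, CPM of the library total was computed per library, with exact (Clopper-Pearson) intervals at 95% and a floor of 3 counts, which cover counting error only.

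Libraries of one mouse and stage were summed, so that the mouse was the replicate. Genes past filterByExpr were tested with edgeR 4.0.16 (TMM scaling, glmQLFit robust, glmQLFTest) in R 4.3.3, with Benjamini-Hochberg adjustment over all genes tested and a threshold of 0.05, and SE was taken as the log2 fold change over the root of F. Primaries shared 1 fit of 13 mice in 3 groups, except MCL-like against all non-MCL, fitted in 2 groups. Tumour site was fitted with genotype as a covariate and transplants with mouse as a block, since they come from the same mice. Deviations of libraries from their stage means correlated at 0.231 to 0.359 within a mouse and at −0.256 to −0.029 between mice. The scripts were tested on simulated data. No 2 libraries agreed within sampling noise.

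Alternatives were DESeq2 1.42.0, its size factors in edgeR, library totals, no filter, each mouse left out, spleen tumours only, no tumours named oTP, 2-group fits, and changes of covariate, block or site grouping. The named genes were the 9 members, a set of partner genes and, for each list, up to 3 called genes with the lowest adjusted p. Members and lists were chosen with earlier results of these data known. Promoter windows are RefSeq, GRCm38.p6, and gene positions GENCODE M21. The 2 Ccnd2 non-MCL transplants entered no test. Values of some partner genes and of the gene most like Gpr183 are not reported here.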

Additional observations from a re-analysis of the deposited data

Results flagged for a closer look

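Among 36 groups of 4, 6 or 9 mice, 9 had 1 mouse far from the others by its gap to the next mouse. The cut-offs flag about 1 in 20 groups only if values are normal. The CPM were not log-scaled, every flag was at the high end and some groups share mice. The 9 flags are therefore not set against that rate. Ccr6 was far above the others at 60.7 CPM in the mesenteric MCL-like primary and at 68.1 CPM in the pooled transplants of the same mouse. The p53-only spleen of replicate 3 stood apart at 20.2 CPM of Ccr6, 35.7 CPM of Gpr183 and 111 CPM of Itgb7 among p53-only mice, and for Ccr6 (20.2) and Gpr183 (35.7) also among all non-MCL mice. This mouse also had the highest T cell sum of the p53-only mice, 652.2 CPM. S1pr2 was far above the others at 59.9 CPM in the p53-only mouse of replicates 2 and 5, among all non-MCL mice. S1pr3 stood apart at 5.45 CPM in p53-only replicate 7, where the next mouse had 1.78 CPM.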

How the results depend on the processing

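Of 889 alternative values of the members' log2 fold changes, 821 kept direction and side of the threshold, 19 lost a call, 17 gained one and 32 changed sign, all of the last for members without a call. The cause of each change was not tested. S1pr1 and S1pr3 kept their calls against p53-only and against all non-MCL primaries with each mouse left out, at edgeR adjusted p up to 0.0357 and 0.0251 for S1pr1 and up to 0.0124 and 0.0209 for S1pr3. Library totals moved the median log2 fold change of all genes against all non-MCL primaries to −0.22. Low counts limit Ccr6, Gpr183 and S1pr3 in non-MCL tumours.

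Against Ccnd2 non-MCL primaries, members called were 2 with DESeq2, 1 with spleens only, 3 without oTP tumours and 1 with 2 groups, and genes called were 22 with RLE size factors, 847 with DESeq2, 116 with spleens only, 552 without oTP tumours and 371 with 2 groups. Leaving out each mouse gave 0 members and 0 to 54 genes. Against p53-only primaries, members called were 1 with spleens only and 1 without oTP tumours, and genes called were 1827 with DESeq2, 35 with spleens only and 116 without oTP tumours. Leaving out each mouse gave 2 to 3 members and 188 to 1117 genes. Against all non-MCL primaries, members called were 4 with DESeq2, 1 with spleens only and 0 with genotype as a covariate, and genes called were 1698 with DESeq2, 39 with spleens only, 246 without oTP tumours and 29 with genotype. Leaving out each mouse gave 2 to 4 members and 176 to 1065 genes.

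Between Ccnd2 non-MCL and p53-only primaries, genes called were 2 with no filter, 119 with DESeq2, 41 with spleens only, 116 without oTP tumours and 0 to 8 with each mouse left out, and 0 members were called with any mouse left out. For transplants, genes called were 35 with no filter, 31 with DESeq2, 14 without the mesenteric mouse and 0 to 14 with each mouse left out, with 0 members. The fit with no replicate block, where samples were not paired by mouse, called 0 members and 0 genes. For tumour site, members called were 3 with no filter and 1 with DESeq2, and genes called were 1023 with no filter, 768 with DESeq2, 75 with unstated sites added to the thoracic ones and 0 to 136 with each mouse left out, with 0 members.

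Sign changes among log2 fold changes were these. Against p53-only primaries, Ccr6 was −2.45 and Gpr183 −0.68 in spleens. Against all non-MCL primaries, Ccr7 was 0.77 with genotype and Gpr183 −0.017 in spleens. Between Ccnd2 non-MCL and p53-only primaries, S1pr1 was −0.48 without oTP tumours, Cxcr4 0.53 in spleens and 0.36 without oTP tumours, and Cxcr5 −1.08 in spleens. For transplants, Ccr7 was 0.16 and Gpr183 0.37 without the mesenteric mouse, Cxcr4 −0.055 with library totals and Ccr6 0.063 with no replicate block. For tumour site, Ccr7 was −0.031 with RLE factors and −0.033 with DESeq2, and with unstated sites added Ccr7 was −0.063 and S1pr3 0.65.

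With single mice left out, signs changed within these ranges. S1pr2 ran from −0.69 to 0.023 against Ccnd2 non-MCL, where the positive value lacks MCL-like replicate 3. Ccr6 ran from −1.69 to 2.82 against p53-only and from −1.27 to 2.63 against all non-MCL primaries, the lowest without MCL-like replicate 1. Between Ccnd2 non-MCL and p53-only primaries, Itgb7 ran from −3.36 to 0.37, S1pr1 from −0.61 to 0.65 and Cxcr5 from −0.16 to 1.67. For transplants, Ccr7 ran from −0.84 to 0.16, Cxcr4 from −0.021 to 0.089 and Gpr183 from −0.92 to 0.37. For tumour site, Ccr7 ran from −1.36 to 0.59, S1pr1 from −0.79 to 0.075 and Cxcr5 from −4.88 to 0.30.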
